A study of Mus musculus with 8 samples.

Results

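The 9 genes described here carry vitamin A into cells, turn it into retinoic acid, carry that acid to its receptors, respond to it and break it down: Stra6 and Rbp4 (uptake), Crabp1 and Crabp2 (binding inside the cell), Aldh1a1, Aldh1a2 and Aldh1a3 (synthesis), Rarb (receptor and response) and Cyp26b1 (degradation). They were taken by gene symbol, with every probe-set assigned to that symbol alone, which gave 11 probe-sets among 45037 and 9 genes among 18193. Stra6 was already known to be lower with T3 at all 4 time points when the list was drawn up, so the comparison of T3 with untreated cultures is given for these genes as a description without a test. The cells were primary cultures of wild-type mouse cerebellar neurons from newborns. They had been kept for 48 h in serum-free medium and were then given T3, the active thyroid hormone, at 0.1 µM, or left without it for the same time. The groups were T3 at 6, 16, 24 and 48 h and untreated at the same hours, with 1 culture and 1 whole-genome Affymetrix mouse array in each, so that no condition had a replicate. The labels give pups of 4 to 7 days, whereas the methods give another, partly overlapping range of ages. The methods state that the medium favoured neurons at the expense of glia and that the cultures of a time point were matched by cell batch. Whether the batches differed between time points is not stated, so hours and batch cannot be told apart.

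Retinol, the alcohol form of vitamin A, travels in blood bound to RBP4, and STRA6 is the membrane receptor through which many cells take it up. Inside the cell, retinol is oxidised to retinal, and the ALDH1A enzymes make retinoic acid from retinal. CRABP2 hands retinoic acid to the RAR receptors, which bind DNA together with RXR and switch on target genes, while CYP26 enzymes clear the acid. RXR is also the partner of the thyroid hormone receptors. In the developing brain, the meninges and the choroid plexus are known sites of retinoic acid synthesis, and Aldh1a2 is a known marker of meningeal fibroblasts.

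Each array had been scaled to a trimmed mean signal of 100, and the median signal of a probe-set lay between 14.8 and 17.7. The T3 targets Klf9 and Dbp, both transcription factors, were higher in every pair, with ratios of T3 to untreated signal of 2.54, 1.82, 2.54 and 1.51 for Klf9 and 2.89, 2.72, 2.61 and 1.96 for Dbp at 6, 16, 24 and 48 h. Over the 4 pairs, neither passed the test across all probe-sets (limma, adjusted p = 0.306 for Klf9 and 0.154 for Dbp). The corepressor Hr, another known target, stayed between 7.1 and 17.6 and below the filter on low signals described next. The labels call the cells neurons, and all 11 neuronal markers looked at had a signal high enough to be kept. So did 11 of 12 markers of astrocytes and Bergmann glia, 13 of 15 of meningeal fibroblasts and 11 of 12 of choroid plexus epithelium. Passing the filter therefore does not tell which cells prevailed. The neuronal signal was lowest at 48 h: Tubb3, the neuronal tubulin, gave 460.4, 152.7, 322.7 and 45.0 in T3 cultures and 415.3, 114.4, 1019.9 and 49.3 in untreated cultures at 6, 16, 24 and 48 h.

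A probe-set was kept for testing when its mean signal over the 8 arrays (mean of log2 values, signals under 1 set to 1) reached the 60th percentile, a signal of 31.0. This kept 18015 probe-sets, and among the 9 retinoid genes it kept 6: Stra6, Rbp4, Crabp2, Aldh1a2, Rarb and Cyp26b1. Aldh1a1, Aldh1a3 and Crabp1 fell below it. Of those kept, Stra6 had the lowest mean signal, 47.1. Among those left out, Aldh1a1 had the highest, 13.2.

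The promoters of the members are shown because retinoic acid receptors act through pairs of short core motifs, and because the signals of Rarb, Stra6, Rbp4 and Aldh1a2 moved together across the arrays, as described further on. RefSeq windows (mouse build GRCm38.p6, from 250 bases before to 50 after a transcription start) were at hand for 7 of the 9 genes, 12 windows in all. They were searched on both strands for the core AGGTCA and for its variants (AGTTCA or GGGTCA or GGTTCA). The last 100 bases before start 1 are printed for 4 genes, of which Rbp4 and Stra6 have further starts. They run from 5′ to 3′ on the strand of the gene, with the cores in capitals (TGACCC is GGGTCA read on the other strand). The windows are chr14:16575477-16575576 (minus strand) for Rarb, chr19:38125322-38125421 (minus strand) for Rbp4, chr9:58128988-58129087 (plus strand) for Stra6 and chr9:71215689-71215788 (plus strand) for Aldh1a2.
Rarb: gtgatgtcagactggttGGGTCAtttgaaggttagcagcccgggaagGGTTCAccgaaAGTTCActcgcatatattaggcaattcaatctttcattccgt
Rbp4: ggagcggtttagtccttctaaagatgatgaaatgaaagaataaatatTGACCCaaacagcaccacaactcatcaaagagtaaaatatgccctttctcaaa
Stra6: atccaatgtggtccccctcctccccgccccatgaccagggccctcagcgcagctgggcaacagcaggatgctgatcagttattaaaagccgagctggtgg
Aldh1a2: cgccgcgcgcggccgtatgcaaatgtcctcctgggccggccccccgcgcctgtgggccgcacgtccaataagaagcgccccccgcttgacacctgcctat
The Rarb window held 2 cores in the same orientation with 5 bases between them, GGTTCA at 53 and AGTTCA at 42 bases before the start. Such a repeat with a spacer of 5, the spacing best known for retinoic acid receptors, was present in 32 of 32851 RefSeq windows (0.0974%) and in none of the other 11 windows of these genes. Repeats with a spacer of 4, the spacing best known for thyroid hormone receptors, were found in 0.0822% of all windows and in 0 of the 12, and those with a spacer of 1 (0.222% of all windows) or 2 (0.268%) also in 0 of the 12. A lone core is common: 43.7% of all windows held at least 1, and so did 4 of the 12. These were the windows of Rarb, Rbp4 (start 1), Aldh1a1 (start 2) and Stra6 (start 3, with the core 15 bases after the start). A match is a string of letters and was not tested as a binding site.

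Stra6, the retinol receptor on chromosome 9, gave signals of 7.5, 101.1, 19.1 and 100.6 in T3 cultures and 21.3, 162.2, 25.7 and 185.8 in untreated cultures at 6, 16, 24 and 48 h. The T3 array was the lower at each time point, but the ranges of the treatments overlapped widely, since signals differed far more between hours than between treatments. On the log2 scale, T3 minus untreated was -1.51, -0.68, -0.43 and -0.89, with a mean over the 4 pairs of -0.88 (SD 0.46). The signal in the untreated culture was thus 2.84, 1.60, 1.35 and 1.85 times that in the T3 culture. The 6 h and 24 h pairs lay under the mean signal required by the filter, where a small difference in signal makes a large ratio. With 32 added to every signal, which damps low values, the differences became -0.43, -0.55, -0.18 and -0.72 and remained negative.

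Rbp4, the retinol carrier, on chromosome 19, had signals of 53.4, 262.6, 293.9 and 302.0 in T3 cultures and 63.8, 380.1, 290.0 and 600.9 in untreated cultures. Both 6 h arrays stood apart below all others. The treatments were nearly equal at 24 h and farthest apart at 48 h, where the log2 difference was -0.99. It was -0.26 at 6 h, -0.53 at 16 h and 0.02 at 24 h, with a mean of -0.44 (SD 0.43, n = 4 pairs), and thus lower with T3 in 3 of 4 pairs.

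**Figure D1:**
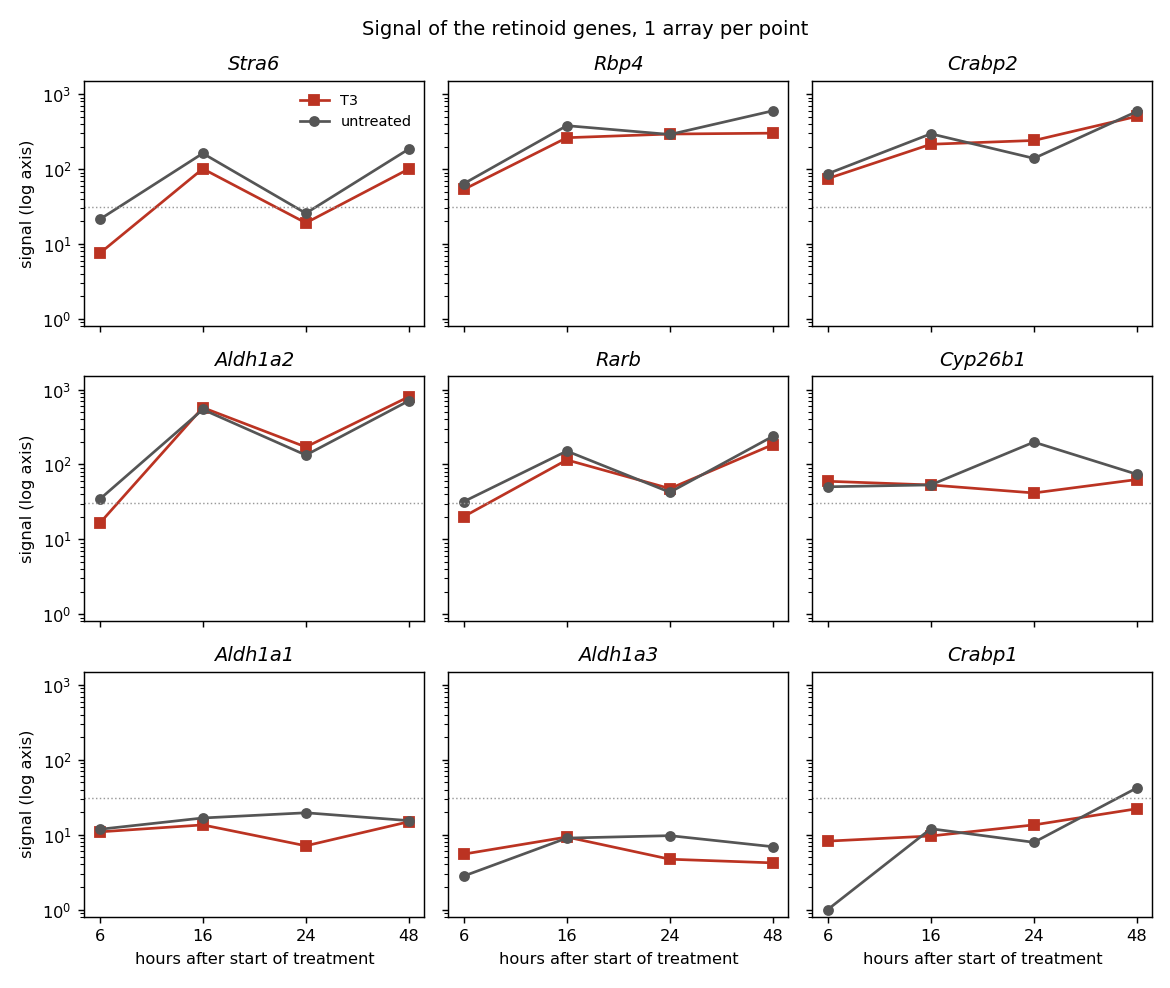
Signal (log axis, arbitrary units of the array software) of the 9 retinoid genes by hours since treatment began, for T3 (red squares) and untreated (grey circles) cultures, 1 array per point, brightest probe-set of each gene, signals under 1 drawn at 1, with the dotted line at the mean signal of 31.0 required by the filter. Stra6, Aldh1a2 and Rarb were high at 16 and 48 h and low at 6 and 24 h in both treatments. Aldh1a1 and Aldh1a3 stayed under the dotted line, and Crabp1 passed it on 1 array, the untreated culture of 48 h (42.2).

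Crabp2, on chromosome 3, encodes the protein that delivers retinoic acid to its receptors. Its signals were 74.7, 214.7, 241.1 and 506.2 in T3 cultures and 86.7, 296.1, 139.1 and 588.9 in untreated cultures. The lowest signals were those of 6 h and the highest those of 48 h in both treatments, whose ranges overlapped. The log2 differences were -0.22 at 6 h, -0.46 at 16 h, 0.79 at 24 h and -0.22 at 48 h, so that the 24 h pair went the other way from the rest and the mean was -0.03 (SD 0.56, n = 4 pairs). Crabp1, its relative on chromosome 9, which also binds retinoic acid in the cytoplasm, gave only 8.2, 9.6, 13.5 and 22.2 in T3 cultures and 0.8, 12, 7.9 and 42.2 in untreated cultures. Apart from the untreated 48 h array, these are low signals, and the 6 h pair, with an untreated value under 1, has no ratio that can be relied on.

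Of the synthesis enzymes, Aldh1a2 (chromosome 9) was the only one well above the low signals. It read 16.4, 575.0, 171.0 and 803.1 in T3 cultures and 34.3, 542.1, 133.2 and 709.9 in untreated cultures at 6, 16, 24 and 48 h. Every 16 h and 48 h array stood above every 6 h and 24 h array. The mean log2 signal of a pair spanned 4.99 over the hours, the widest span among the 6 kept genes, against a largest difference within a pair of 1.06. That largest difference was at 6 h, where the T3 array was lower (-1.06), and the later pairs were slightly higher with T3, by 0.09, 0.36 and 0.18, giving a mean of -0.11 (SD 0.65, n = 4 pairs). With 32 added to the signals, the 6 h difference was under 2-fold. Aldh1a1 (chromosome 19) ranged from 7.1 to 14.9 in T3 cultures and from 11.8 to 19.6 in untreated cultures. The 3 probe-sets of Aldh1a3 (chromosome 7) had signals of at most 9.7 on any array. Aldh1a1 was lower with T3 in all 4 pairs, and so was 1 of the 3 Aldh1a3 probe-sets. Signals this low give no order between arrays that can be relied on.

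Rarb, on chromosome 14, encodes a retinoic acid receptor and is itself a classical target of retinoic acid, through a repeat with a spacer of 5 in its promoter, the kind printed above. It had signals of 20.1, 115.0, 47.6 and 184.3 in T3 cultures and 31.9, 151.0, 42.5 and 238.0 in untreated cultures. The order of the hours was the same in both treatments, 6 h, 24 h, 16 h and 48 h from low to high. T3 minus untreated was -0.67, -0.39, 0.16 and -0.37 on the log2 scale, with a mean of -0.32 (SD 0.35, n = 4 pairs), lower with T3 in 3 of 4 pairs.

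Cyp26b1 (chromosome 6), an enzyme that breaks down retinoic acid, behaved otherwise. It gave 59.6, 53.2, 41.6 and 62.9 in T3 cultures and 50.3, 53.3, 198.8 and 73.8 in untreated cultures, so that 7 arrays lay close together and the untreated 24 h array stood far above them. The untreated signal was 4.78 times the T3 signal at 24 h (log2 difference -2.26), while the other log2 differences were 0.24 at 6 h, 0.00 at 16 h and -0.23 at 48 h. The mean of the 4 pairs was -0.56 (SD 1.15) and became 0.00 without the 24 h pair. Several glial genes peaked on the same array. At 24 h, the 12 markers of astrocytes and Bergmann glia with a probe-set (11 kept) summed to 5348 with T3 and 10083 untreated. The 7 oligodendrocyte lineage markers with a probe-set (4 kept) summed to 824 with T3 and 2423 untreated. At the other hours, these sums lay between 3284 and 5673 with T3 and between 3298 and 5382 untreated for the astrocyte list, and between 863 and 1193 with T3 and between 892 and 1197 untreated for the oligodendrocyte list. Of the kept markers, 8 of 11 in the astrocyte list and 3 of 4 in the oligodendrocyte list were lower with T3 at 24 h. The extreme was Aqp4, the water channel of astrocytes, with 45.8 with T3 and 1053.9 untreated. The others went the other way: Gdf10 (196.3 with T3, 98.9 untreated), Gja1 (2867.5, 2594.7), Sox9 (55.0, 54.0) and Pdgfra (245.0, 242.4). Mog, a myelin gene, was at 0.6 with T3 and 2.6 untreated at 24 h, near the floor. The difference at 24 h was not limited to glial markers. Of the 11 kept neuronal markers, 10 were lower with T3 at 24 h, with sums of 9108 with T3 and 13689 untreated. The untreated 6 h sum of the neuronal list was close to the latter, at 13300. In whole cultures, a change in the number of cells of a type and a change in RNA per cell cannot be told apart. The part of glial or neuronal cells in the Cyp26b1 value was not tested.

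Over the 6 kept genes and 4 time points, 3 of the 24 differences between T3 and untreated cultures were over 2-fold, all lower with T3: Stra6 at 6 h, Aldh1a2 at 6 h and Cyp26b1 at 24 h. Among all kept probe-sets, 2.9% of such differences passed 2-fold in either direction, unevenly over the hours: 0.328% were over 2-fold lower at 6 h, 0.305% at 16 h, 5.16% at 24 h and 0.344% at 48 h. The shares over 2-fold higher were 0.527%, 0.433%, 3.67% and 0.833%, and 0 of the 24 values of these genes were. With 32 added to the signals, 1 of the 3 was still over 2-fold, that of Cyp26b1. Stra6 was the 1 gene of 6 that was lower with T3 in all 4 pairs, a pattern seen in 6.82% of all kept probe-sets and by which it had been picked; 8.25% were higher in all 4. The median difference of the 6 genes was -0.46, -0.43, 0.09 and -0.30 at 6, 16, 24 and 48 h, beside 0.01, 0.00, 0.05 and 0.00 for all kept probe-sets. Stra6, picked by its own differences, is among the 6. These medians and the 3 differences past 2-fold are therefore a description and no support for a lowering of the group. In the fit over the 4 pairs, 0 of 18015 probe-sets passed in either direction after adjustment (0%), with 985 at an unadjusted p below 0.05. Without the 24 h arrays, 2 probe-sets passed, both higher with T3.

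**Figure D2:**
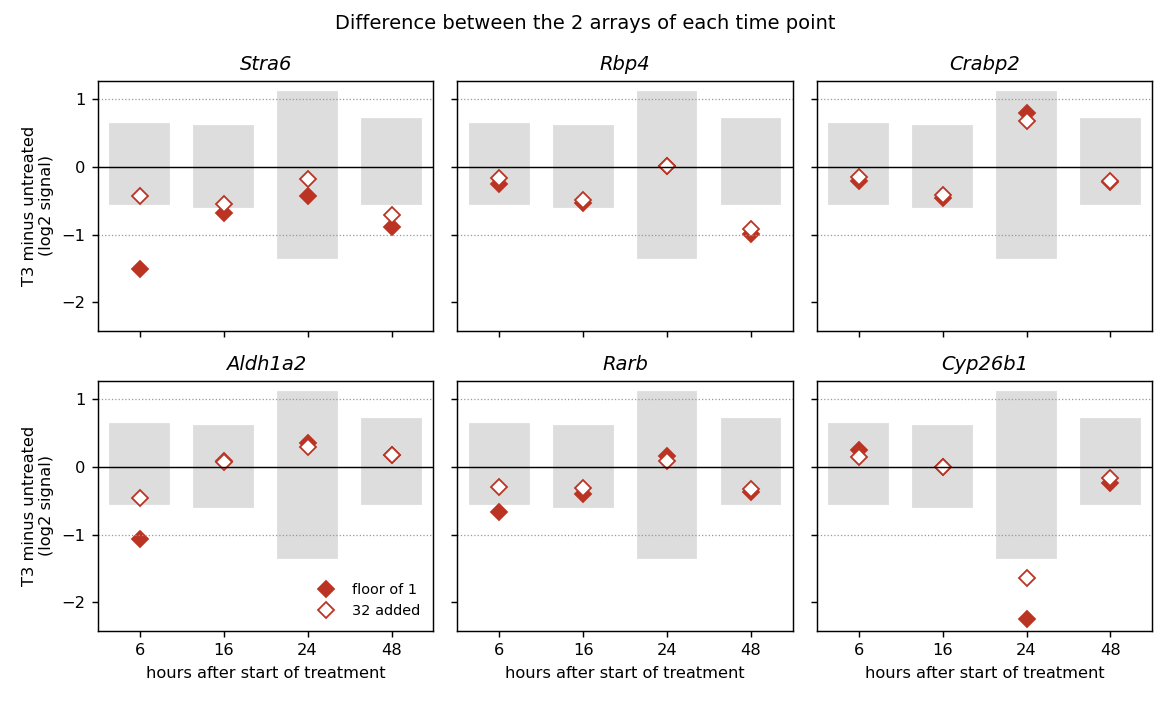
Log2 difference of T3 minus untreated signal within each time point (hours on the horizontal axis) for the 6 kept genes, with signals under 1 set to 1 (filled diamonds) or with 32 added (open diamonds). Grey bars span the middle 95% of all kept probe-sets (signals under 1 set to 1) and dotted lines mark 2-fold, and the Stra6 points were below 0 at every time point while Cyp26b1 left the bar at 24 h alone.

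The hours in culture were not the comparison by which Stra6 had been picked. The list was nonetheless drawn up with earlier results of these data known. Stra6 also passed the filter only through its 16 h and 48 h signals. The test over the hours is thus not wholly independent of the choice. It used all 8 arrays with treatment as a covariate. The time point was a random block, since the arrays of a time point resembled each other (block correlation 0.569). Rbp4 was the 1 gene of the 6 that passed, with a rise of 0.95 in log2 signal for each 2-fold increase in hours (SE 0.19, adjusted p = 0.0480), and 0 fell. Among all kept probe-sets, 2.18% passed, 1.75% as rising and 0.422% as falling. Estimates of similar size for Crabp2 (0.85, SE 0.20, adjusted p = 0.0601), Stra6 (0.95, SE 0.38, adjusted p = 0.174) and Rarb (0.88, SE 0.27, adjusted p = 0.101), and a larger one for Aldh1a2 (1.52, SE 0.38, adjusted p = 0.0694), did not pass. Cyp26b1 had a slope of 0.16 (SE 0.32, adjusted p = 0.788). The median slope was 0.91 for the 6 genes and -0.03 for all kept probe-sets.

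The Rbp4 call was lost in 9 of 14 alternative settings. With the 2 arrays of each time point averaged, its adjusted p was 0.208 and 0 of 18015 probe-sets passed, and with quantile normalization it was 0.0573. When the 6 h arrays were left out, a slope of 0.30 remained (adjusted p = 0.999), and when those of 48 h were left out, 1.26 (adjusted p = 0.386). Without the 24 h arrays, 5 of the 6 genes passed as rising, in a fit in which 13.4% of all kept probe-sets did so: Crabp2 (adjusted p = 0.00250), Rarb (0.00595), Rbp4 (0.0103), Aldh1a2 (0.0134) and Stra6 (slope 1.12, adjusted p = 0.0213).

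For Stra6, Aldh1a2 and Rarb, the steps between time points were not those of a steady rise. In each of these genes, every 16 h and 48 h array, treated or not, lay above every 6 h and 24 h array. This alternation was noticed after the values had been seen. It held for 3 of the 6 kept genes and for 14.2% of all kept probe-sets. For Rbp4, Crabp2, Aldh1a2 and Rarb, all arrays of 6 h lay below all later arrays, an order found in 19.4% of all kept probe-sets. For Stra6, the distance between time points exceeded that within pairs: the pair means spanned 3.44 log2 units and the widest pair differed by 1.51. For Cyp26b1 the order was reversed, with 0.77 between pair means and 2.26 within the widest pair.

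Markers of other cell types moved with these genes. The summed signal of the 15 markers of meningeal fibroblasts (13 of them kept) was 1844, 10976, 10826 and 17292 in T3 cultures and 2244, 12777, 7818 and 18771 in untreated cultures at 6, 16, 24 and 48 h. Of the 13 kept, 8 rose over the hours while 0 fell (1.75% and 0.422% of all kept probe-sets). Like all calls over the hours, these were lost with averaged pairs, with linear hours and with no variance trend, where 0 probe-sets passed. The collagen gene Col1a2 and Dcn, which encodes the matrix proteoglycan decorin, were among the bright ones. None of the 15 fell under the floor, but Slc6a13, which was not kept, was close to it at 6 h (1.3 with T3, 1.4 untreated). For the 12 of 13 markers of choroid plexus epithelium with a probe-set, the sum was 5280, 10073, 5784 and 9288 with T3 and 4974, 9620, 5033 and 8347 untreated. Of the 11 kept, 9 showed the same alternation of 16 h and 48 h over 6 h and 24 h. Among these, Kcnj13, a potassium channel of that epithelium, read 87.8, 759.3, 176.3 and 651.0 with T3 and 43.6, 393.6, 37.6 and 281.3 untreated. Kl was the 1 choroid plexus marker to fall under the floor, in the untreated culture of 24 h. The neuronal sum went the other way, with 12744, 6134, 9108 and 3568 in T3 cultures and 13300, 5402, 13689 and 2595 in untreated cultures.

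**Figure D3:**
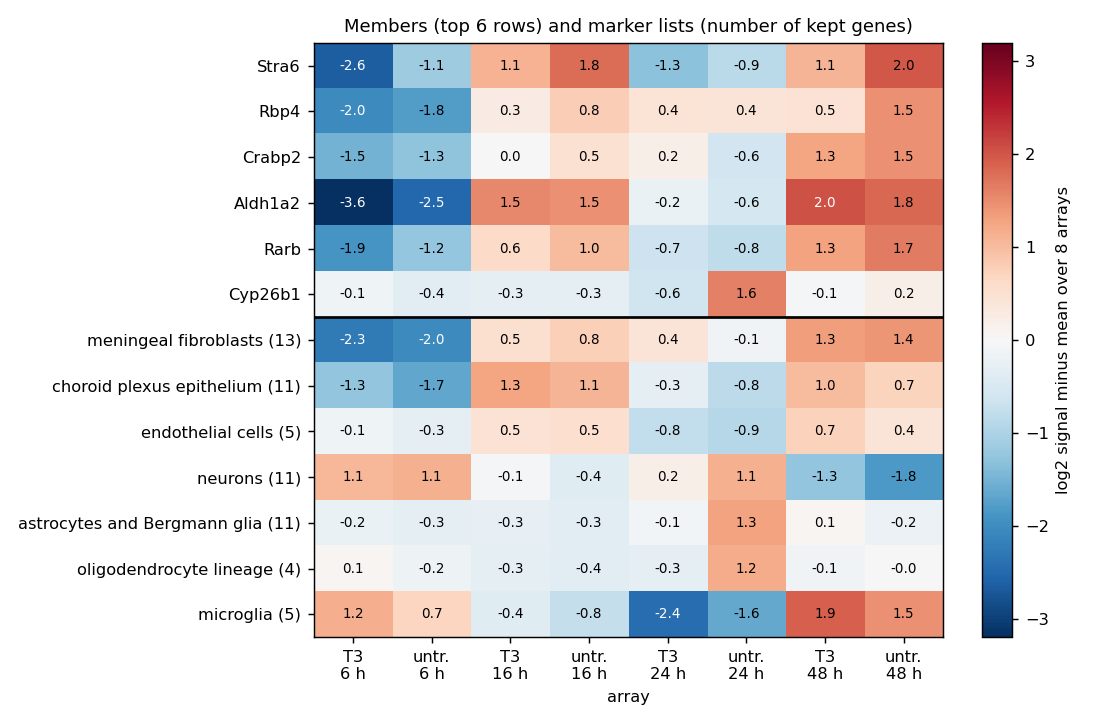
Log2 signal minus the mean over the 8 arrays for the 6 kept genes (upper rows) and the mean of the kept markers of each cell type (lower rows, number of genes in brackets), with the T3 array left of the untreated array at each time point. Red is above and blue below the mean of the row. The blue cells of 6 h and red cells of 48 h of Rbp4, Crabp2, Aldh1a2 and Rarb recur in the rows of meningeal fibroblasts and choroid plexus epithelium. They are fainter in the row of endothelial cells.

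Between the treatments, the choroid plexus markers went both ways: 8, 6, 10 and 7 of the 11 kept were higher with T3 at 6, 16, 24 and 48 h, with median log2 differences of 0.25, 0.06, 0.55 and 0.21. Of the 13 kept meningeal markers, 6, 3, 12 and 4 were higher with T3, with medians of -0.17, -0.14, 0.61 and -0.02. The medians of the neuronal markers were -0.08, 0.38, -0.80 and 0.43, and those of astrocytes and Bergmann glia 0.08, -0.01, -1.25 and 0.11. These values stand beside the T3 differences of the retinoid genes without a test, since each condition has 1 array and Stra6 was picked by its own differences.

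Over the 8 log2 signals, Stra6 correlated with Rarb at Pearson r = 0.971, with Aldh1a2 at 0.921, with Crabp2 at 0.841 and with Rbp4 at 0.789. Rarb ranked 7 among the 10193 other kept genes in likeness to Stra6. Aldh1a2 correlated with Rarb at 0.954, with Crabp2 at 0.922 and with Rbp4 at 0.907. Cyp26b1 stood outside this group, with r between -0.07 and 0.21. The mean of the meningeal markers had r = 0.969 with Aldh1a2, 0.960 with Rbp4, 0.953 with Crabp2, 0.904 with Rarb and 0.831 with Stra6. For the choroid plexus markers, the values were 0.934 for Aldh1a2, 0.908 for Rarb, 0.883 for Stra6, 0.829 for Crabp2 and 0.771 for Rbp4. Those of the endothelial markers lay between 0.287 (Rbp4) and 0.750 (Rarb) for these 5 genes. Those of the neuronal markers lay between -0.955 (Crabp2) and -0.744 (Rbp4). Cyp26b1 instead had its highest values with the markers of the oligodendrocyte lineage (r = 0.969) and of astrocytes and Bergmann glia (r = 0.919). Cyp26b1 and both of these lists were highest on the untreated 24 h array, which therefore weighs heavily in these values. The points of these correlations are 4 pairs of arrays that share hours and cell batch, and they are given as a description. The part of meningeal, choroid plexus, endothelial or neuronal cells in the levels was not tested.

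**Figure D4:**
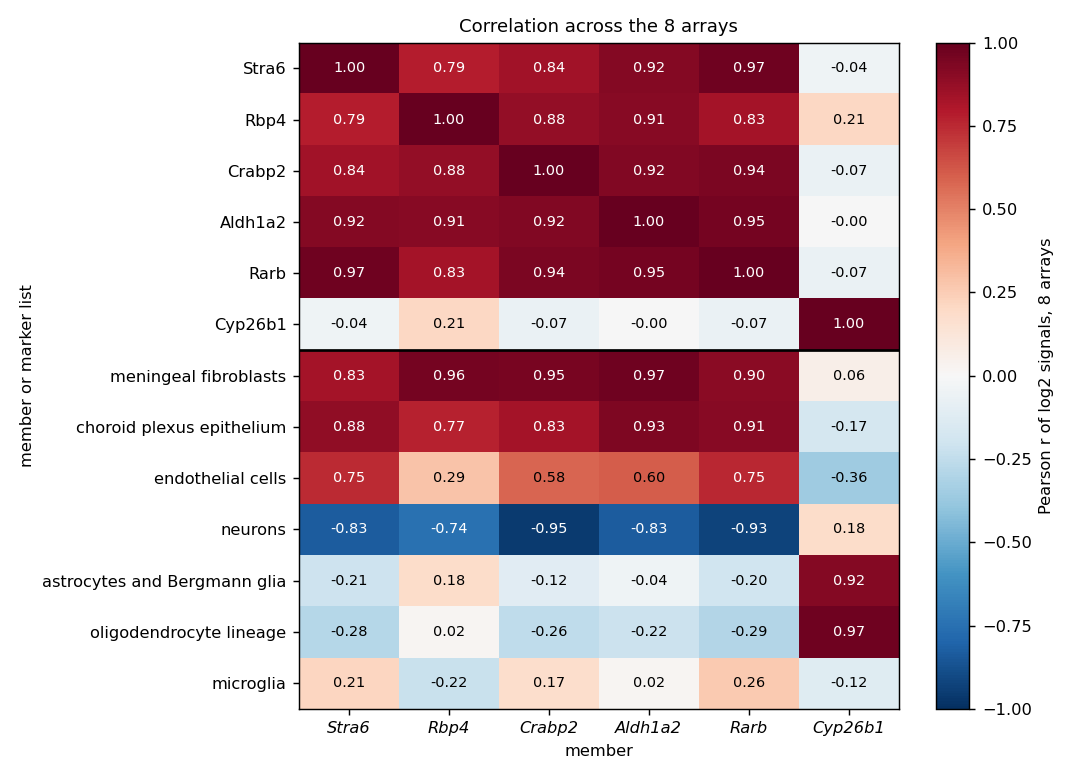
Pearson correlation over the 8 arrays of the log2 signals of the 6 kept genes with each other (upper block) and with the mean of each list of cell type markers (lower block). Values lie between 0.79 and 0.97 among Stra6, Rbp4, Crabp2, Aldh1a2 and Rarb. Cyp26b1 has its highest values with the oligodendrocyte and astrocyte lists, which share its peak on the untreated 24 h array.

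The genes with the pattern most like that of Stra6 over the 8 arrays were Pgghg (r = 0.988), Dennd4c (0.983), Rest (0.978), Rgp1 (0.976) and Podxl (0.972). Rest encodes a repressor of neuronal genes. For Rbp4 they were Spg7 (0.993), Pamr1 (0.992) and Zbtb4 (0.986), and for Crabp2 Chst14 (0.996), Pdxdc1 (0.994) and Ifi47 (0.993). For Aldh1a2 they were Igfbp4 (0.995), which encodes a binding protein of insulin-like growth factors, 1700007K13Rik (0.993) and Zfp185 (0.992). Rarb was followed most closely by Arhgap6 (0.992), Rai14 (0.991) and Fap (0.989), the last a protease gene known from activated fibroblasts. Cyp26b1 was nearest to Cnp (0.996), an oligodendrocyte gene that is in the marker list above, Acot1 (0.981) and Btbd2 (0.973). Cnp, too, was highest on the untreated 24 h array, which weighs heavily in its value.

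Beyond these 9, a list of 50 further genes of retinoid transport, storage, oxidation, reception, degradation and response was examined, of which 44 had a probe-set of their own and 20 were kept. The test over the 4 pairs called 0 of the 20 in either direction (limma, lowest adjusted p = 0.815), and the test over the hours called 0 rising and 0 falling (lowest adjusted p = 0.0724). The median T3 difference of the 20 was 0.00, and their median slope 0.22, with 16 slopes above 0 (44.4% of all kept probe-sets had one). In 10 of the 20, every 16 h and 48 h array lay above every 6 h and 24 h array, the alternation seen in 14.2% of all kept probe-sets.

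By role, the kept genes were 1 for transport (Ttr, which carries RBP4 and thyroxine in blood), 1 for storage (Dgat1), 9 for oxidation and reduction of retinol and retinal, 4 for receptors and partners, 0 for degradation and 5 for response. Ttr had 3836.8, 3981.7, 3884.4 and 3838.7 in T3 cultures and 3880.6, 4477.7, 3415.2 and 4131.9 in untreated cultures, near the highest signals of the arrays (4676 to 5421). Dhrs3, a reductase that turns retinal back into retinol and is known to be induced by retinoic acid, had 156.1, 431.2, 116.5 and 592.4 with T3 and 74.5, 497.5, 120.3 and 683.0 untreated. Its 6 h difference of 1.07 was over 2-fold, higher with T3, and its later differences lay between -0.21 and -0.05. The receptor gene Rarg, with the lowest adjusted p over the hours (slope 0.85, SE 0.22, adjusted p = 0.0724), had 31.7, 72.9, 58.2 and 132.8 with T3 and 14.9, 86.8, 60.4 and 155.5 untreated, and its 6 h difference was 1.09.

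Among the response genes, Rarres2, which encodes the chemoattractant chemerin, gave 27.2, 47.8, 19.5 and 107.6 with T3 and 3.5, 63.3, 21.7 and 90.1 untreated. Its 6 h difference of 2.96 came from an untreated signal close to the floor. Meis1 and Meis2, homeobox genes, had slopes of opposite sign, -0.96 for Meis1 (SE 0.25, adjusted p = 0.0756) and 0.98 for Meis2 (SE 0.26, adjusted p = 0.0782). Meis1 signals were 822.1, 307.5, 276.7 and 97.1 with T3 and 758.5, 242.3, 611.2 and 77.2 untreated, with a difference of -1.14 at 24 h. Tgm2, a transglutaminase gene known to be induced by retinoic acid, showed the alternation seen in Stra6, with 186.5, 988.9, 392.4 and 1325.8 with T3 and 279.9, 1579.7, 239.4 and 1610.9 untreated (r = 0.964 with Stra6). Without the 24 h arrays, Dhrs3, Rarg, Rxra, Meis2 and Tgm2 passed as rising and Meis1 as falling, 6 of the 20 in a fit that called 27.6% of all kept probe-sets (13.4% rising, 14.2% falling).

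**Figure D5:**
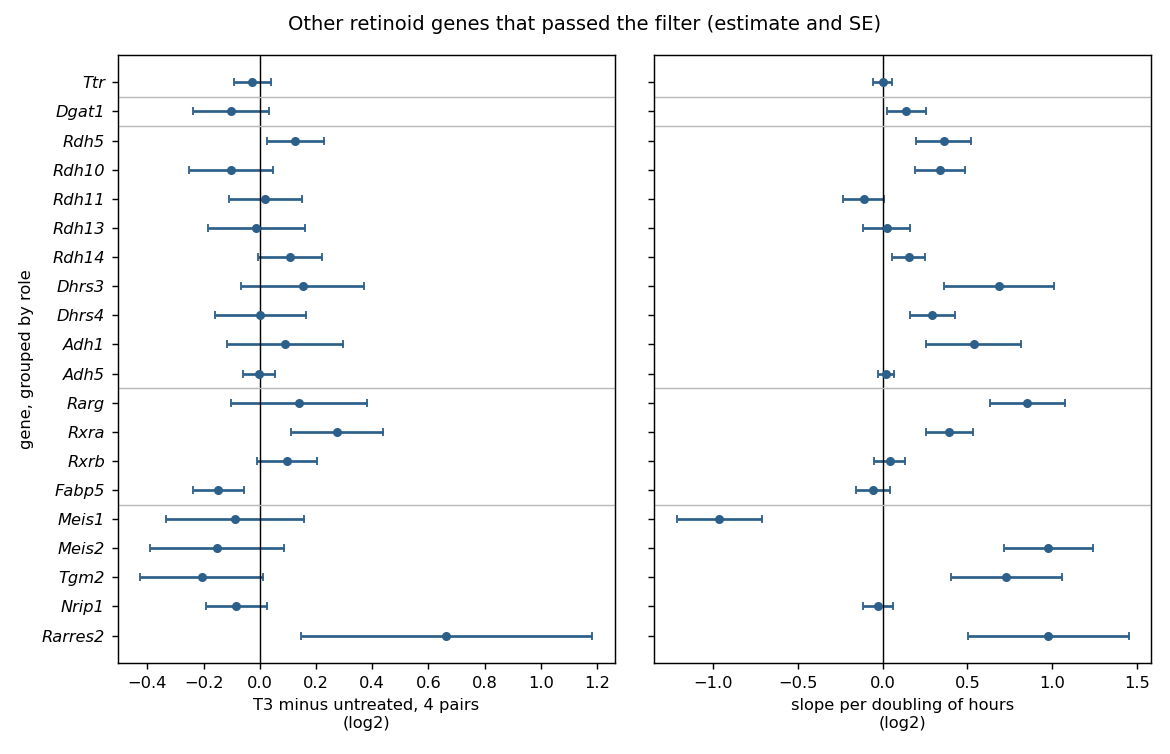
Estimates (points) with SE (bars) for the 20 kept genes of the wider retinoid list, grouped by role, with the T3 minus untreated log2 difference over 4 pairs at left and the log2 slope for each 2-fold increase in hours at right. No gene passed either test after adjustment, and the steepest slopes are those of Meis2, Rarres2 and Meis1, the last downwards.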

How the data were processed

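The authors' deposited table holds 1 signal intensity for each of 45101 probe-sets on 8 arrays, computed with GCOS and MAS5 and scaled by the authors to a common trimmed mean. Of these, 64 control probe-sets were left out, and the number of value columns left unused was 0. Gene symbols came from the platform annotation (34945 probe-sets with 1 symbol, 932 with several, 9160 with none). A gene is given by its brightest probe-set. Signals under 1 were set to 1 before log2. Fits used limma 3.58.1 in R 4.3.3 with a variance trend and Benjamini-Hochberg adjustment over all 18015 kept probe-sets (threshold 0.05). The T3 fit had the time point as a block, since the methods match the cultures of a time point by cell batch. Deviations from the treatment means correlated within pairs at 0.905, 0.713, 0.520 and 0.878 for 6, 16, 24 and 48 h. The time fit used log2 hours, treatment as a covariate and a random block for the time point (duplicateCorrelation, statmod 1.5.0). On simulated data of 18015 probe-sets, the T3 fit recovered 55% of changes of log2 1 and 88% of log2 2 (3 false of 146 calls). The time fit recovered 93% and 100% (16 false of 209 calls). The simulated noise had only the spread within pairs, and the simulated T3 changes were equal at all hours. For the time fit, the scatter between time points was thus smaller than in the data. These shares can therefore overstate what the fits recover here. SE is limma's moderated standard error. P-values rest on the spread between these arrays, with no replicate of a condition. In the T3 fit it is the spread of the difference over the time points, so an effect varying with hours counts as noise. In the time fit it includes departures from a steady slope, which cannot be told apart from batch. Named genes were all members, listed retinoid genes past a test or past 2-fold, those with the lowest adjusted p or a pattern shown beside a member, and the closest genes by correlation. Tgm2, Ttr, Rxra and Meis2 were added after their values were seen. The members and lists were chosen with earlier results of these data known. Alternatives were quantile normalization, 32 added to the signals, no filter or a filter at the 75th percentile, no variance trend, no time block, other treatments of time and leaving out each time point. The number of arrays limits the precision.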

Additional observations from a re-analysis of the deposited data

Results flagged for a closer look

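Among the 4 T3 arrays, Rbp4 at 6 h (signal 53.4) lay far below the others (262.6, 293.9 and 302.0), with a gap to the nearest that made up 0.919 of the range of the group, above Dixon's critical value of 0.829 for 4 samples. The 4 arrays differ in hours, so they are no replicates. In all, 12 groups of 4 arrays of a treatment were examined, and chance flags about 1 in 20.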

How the results depend on the processing

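The count of 392 probe-sets called over the hours, and with it the 1 call among the 6 retinoid genes (Rbp4), depended on the settings. With a filter at the 75th percentile it was 411, and Rbp4 passed (adjusted p = 0.0411). It was 55 with quantile normalization, 162 with 32 added to every signal, 8 with no filter, and 0 with no variance trend, with both arrays of a time point averaged (3409 below 0.05 before adjustment), with linear hours (3585) or with the untreated arrays alone (2091), and 0 of the 6 were called in each of these. With the 8 arrays taken as independent, 3458 were called, with 4 of the 6 and 4 of the 20 other retinoid genes. Leaving out each time point gave 0 to 4981 probe-sets, 0 to 5 of the 6 genes and 0 to 6 of the other 20. The fewest came without the 6 h or the 48 h arrays, the most without the 24 h arrays, and without the 16 h arrays it was 1109, with 3 of the 6 and 2 of the 20. Leaving out the untreated 24 h array alone, a choice made after seeing the data, gave 1613, with 4 of the 6 and 1 of the 20. The slopes of the 6 genes stayed above 0 in every setting in which they were fitted (Stra6, Rarb and Cyp26b1 fell below the filter at the 75th percentile). For T3 over the pairs, 0 probe-sets were called in each setting except without the 24 h arrays, with 2, and leaving out each time point gave 0 to 2 and 0 of the other retinoid genes. With no time block in that fit, 0 were called (76 at an unadjusted p below 0.05). Of the member differences past 2-fold, 3 of 24 became 1 with 32 added. The cause of these shifts was not tested. With 1 array per condition, no difference at a single time point has an error of its own, and low signals limit Crabp1, Aldh1a1, Aldh1a3 and the 6 h values of Stra6 and Aldh1a2.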
